A study of Mus musculus with 6 samples.

Results

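The OAS, IFIT, Mx1 and viperin genes are antiviral effectors that mammalian cells switch on in response to interferon. The set holds 10 of the 22556 genes listed for the mouse pancreas here: Oas1a, Oas2, Oas3, Oasl1 and Oasl2 of the oligoadenylate synthetase family, Ifit1, Ifit2 and Ifit3 of the tetratricopeptide repeat family, Mx1, and Rsad2, which encodes viperin. They were chosen by name and found through their Ensembl identifiers. All 10 were listed for every mouse and all 10 passed the filter on low values, although Oas3 reached it only through its levels in the AP mice pretreated with polyI:C.

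Whole pancreas was sequenced from 6 wild type C57BL/6 mice of 8 weeks by their labels, male by the published methods, with 1 library per mouse and 2 mice in each of 3 groups. Saline mice received saline. AP mice received caerulein, a cholecystokinin analogue that overstimulates acinar cells, in 10 intraperitoneal doses of 200 μg/kg spaced by 1 h. PolyI:C-pretreated AP mice (polyI:C-AP mice) were given 10 mg/kg of polyI:C, a synthetic double-stranded RNA, ahead of the same caerulein course. The methods describe a fast before the injections, and tissue was collected 24 h after caerulein began. In the scheme of the main wild type model polyI:C preceded caerulein by 8 h, and a 1 h interval was tried separately; the interval is not stated for the sequenced mice themselves. No mouse given polyI:C without caerulein was sequenced, so an effect of polyI:C alone and its effect in inflamed tissue cannot be told apart. The mice of a group are separate animals as far as the labels say. The p-values below rest on the spread among these 6 libraries, shared in part between genes.

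Of 18 acinar marker genes, 4 were listed, and these were present in every mouse, so the tissue label was checked against an incomplete list. Transcript levels are in TPM, a measure of transcript abundance that corrects read numbers for gene length and brings every library to a common total. The spacing of low TPM values gave an estimate of the reads on listed genes in each library. It was 3991744 and 3291434 for saline, 6903841 and 8841272 for AP, and 8864457 and 10832715 for polyI:C-AP. Reads on genes that are not listed, most of the acinar markers among them, are not part of these figures. At median gene length a single read was worth 0.215 and 0.266 TPM in saline mice and 0.12 and 0.0957 TPM in polyI:C-AP mice. Levels far below 1 TPM in saline mice therefore rest on very few reads.

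Double-stranded RNA inside a cell is read by OAS enzymes, which answer by making short chains of adenylate linked 2′ to 5′ that act as an antiviral signal. IFIT proteins bind viral RNA whose 5′ end lacks the host's cap methylation or carries a triphosphate, Mx1 is a dynamin-like GTPase of the nucleus that blocks influenza-like viruses, and viperin is a radical SAM enzyme that makes a chain-terminating nucleotide from CTP. Type I interferon induces these genes through a transcription factor complex that binds the interferon-stimulated response element (ISRE) in their promoters. Several, among them Rsad2, Ifit1 and Ifit2, can also be switched on directly by IRF3 without secreted interferon. In the pancreas this programme is best known from infection with coxsackievirus and from islets in type 1 diabetes.

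Comparisons used a linear model fitted with limma to log2(TPM + 0.5) over 16814 genes whose mean reached 1 TPM. Calls required an adjusted p (Benjamini-Hochberg, all tested genes) no higher than 0.05 and at least a 2-fold change. With 2 mice on each side, the smallest two-sided p of an exact permutation test is 0.333, and the p-values of single genes therefore lean on limma's sharing of variance between genes. AP against saline asks what the effectors do in pancreatitis alone, and polyI:C-AP against AP asks what the pretreatment adds. These comparisons share AP mice, and those with saline share saline mice, so their values stand side by side and were not correlated.

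In AP against saline mice, 7 of the 10 effectors were called higher, where 18.2% of all tested genes were. In polyI:C-AP against AP mice, 4 of 10 were called higher, against 0.44% of all tested genes, and 7 of 10 were higher at an unadjusted limma p of at most 0.05 with the same fold limit, where 1.94% of all tested genes were. All 10 were called higher in polyI:C-AP against saline mice, against 16.9% of all tested genes. Oas3 is among these 10 and among the 7 by the unadjusted limma p. It passed the filter only through polyI:C-AP mice, which in part required that group to differ. Counts and medians over the 10 effectors and the OAS genes, here and below, were taken with Oas3 among the genes. None was called lower in any comparison, with a count of 0 also by the unadjusted limma p. Of all tested genes, 4.03%, 0.404% and 2.97% were called lower in the 3 comparisons in this order. With shares this low, 0 of 10 says little about the effectors. The median log2 change over the 10 effectors was 1.38 in AP against saline, 2.34 in polyI:C-AP against AP and 3.81 in polyI:C-AP against saline, beside 0.45, 0.04 and 0.48 over all tested genes. In whole tissue, fewer cells of a type and less RNA per cell cannot be told apart, nor can more cells and more RNA per cell.

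Counted without any test, both AP mice lay above both saline mice for 8 of the 10 effectors, as they did for 52.6% of all tested genes. Both polyI:C-AP mice lay above both AP mice for 9 of 10, against 27.7% of all tested genes. Against saline the count was 10 of 10, with 54.4% of all tested genes. Each of these counts includes Oas3, for which the filter in part required polyI:C-AP mice to differ. The exceptions were Oas2 and Ifit2 in AP against saline and Mx1 in polyI:C-AP against AP.

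Part of the excess of higher genes over saline depends on how TPM is scaled. Under median-of-ratios scaling, the median log2 change of all genes moved from 0.45 to 0.04 in AP against saline, from 0.04 to 0.01 in polyI:C-AP against AP and from 0.48 to 0.04 in polyI:C-AP against saline. The split of called genes moved from 3053 higher and 677 lower to 1513 and 1266 in AP against saline, and from 2838 and 500 to 1281 and 1016 in polyI:C-AP against saline. The direction of each effector's change was kept under both scaling alternatives in all comparisons, except that of Ifit2 in AP against saline. The calls were not all kept. For AP against saline the number of effectors called fell from 7 to 5 under median-of-ratios scaling, where Ifit1 and Ifit3 were lost, and to 3 with voom on estimated reads, where Oasl1 and Oasl2 were lost too. Against saline, polyI:C-AP mice had 9 effectors called under either, without Ifit2. The calls in polyI:C-AP against AP were the same 4 under median-of-ratios scaling, and voom added Oas2.

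**Figure D1:**
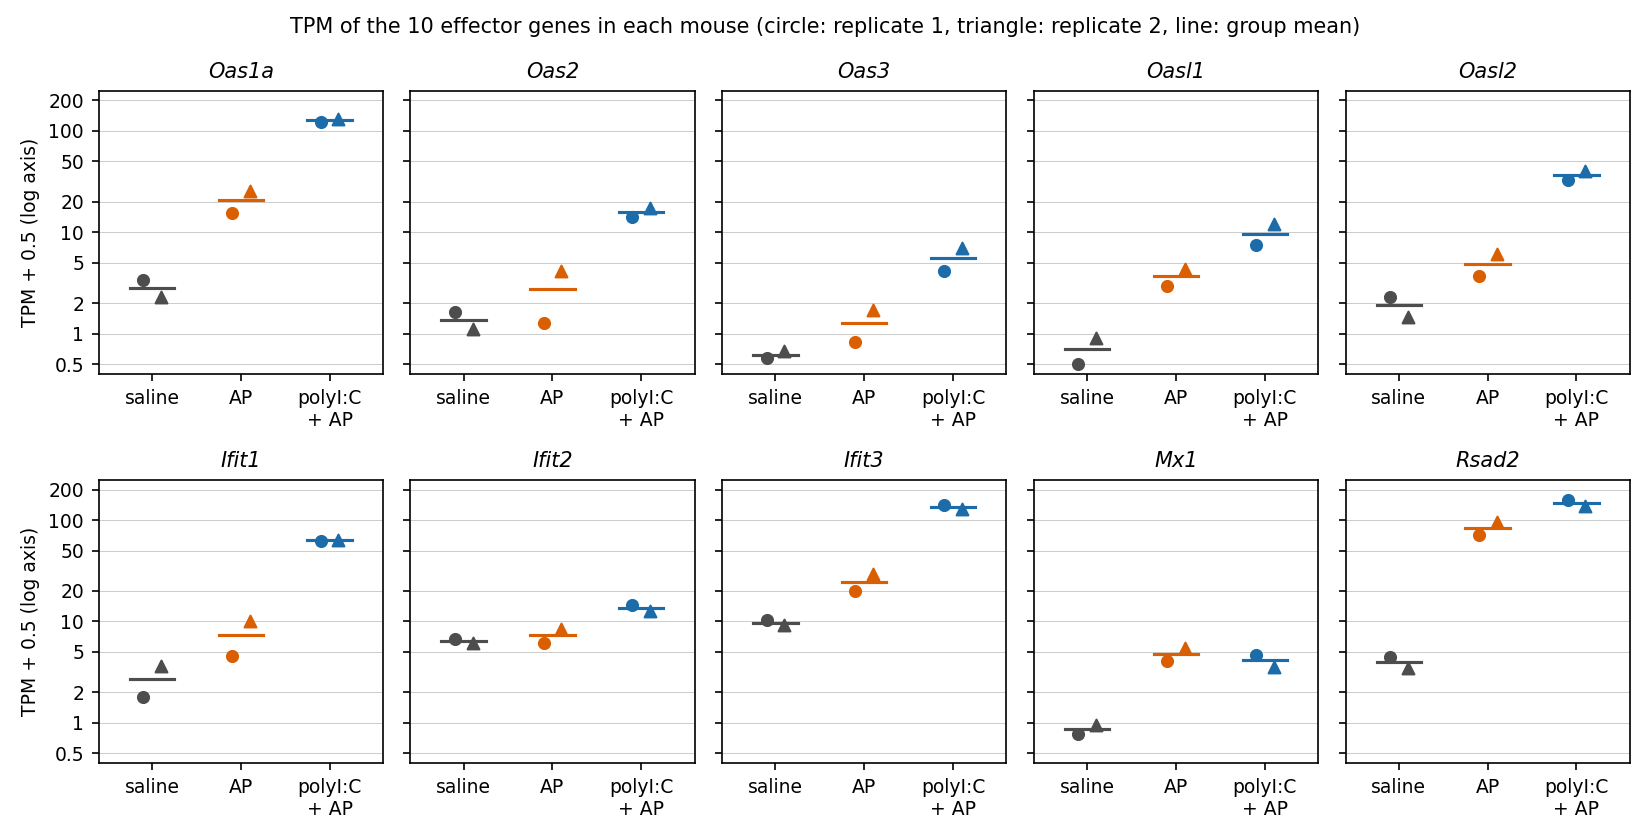
Level of each of the 10 effectors in each mouse (TPM + 0.5, logarithmic axis), with circles for replicate 1, triangles for replicate 2 and a line at each group's mean. Both polyI:C-AP mice lie above both AP mice in every panel but that of Mx1.

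Oas1a encodes a synthetase that is active on double-stranded RNA and is the mouse counterpart of human OAS1 (ENSMUSG00000052776, chr5:120896256-120907521, minus strand, GRCm38). Its level was 2.91 and 1.79 TPM in saline mice, 15.1 and 25.1 TPM in AP mice, and 123 and 129 TPM in polyI:C-AP mice. Saline mice were low, AP mice intermediate and polyI:C-AP mice high, with no overlap between any groups. Oas1a rose 7.17-fold in AP against saline (log2 change 2.84, 95% interval 2.17 to 3.51, limma adjusted p 0.000493), and it was called with each mouse left out in turn. PolyI:C-AP mice stood 6.33-fold above AP mice (log2 change 2.66, interval 1.99 to 3.33, adjusted p 0.0161). That call was lost with any 1 of the 6 mice left out: the adjusted p was 0.0529 without saline replicate 1, 0.0563 without saline replicate 2, 0.173 without AP replicate 1, 0.118 without AP replicate 2, 0.145 without polyI:C-AP replicate 1 and 0.229 without polyI:C-AP replicate 2. The change itself ran from 2.31 to 3.02 on the log2 scale across these 6 settings. A constant prior variance (0.122) or one following mean TPM (0.0787) also ended the call. Against saline, the log2 change was 5.50 (interval 4.83 to 6.17, adjusted p 5.89e-05), the largest of the 10 effectors in that comparison.

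Oas2 encodes a synthetase with a duplicated OAS domain (ENSMUSG00000032690, chr5:120730333-120749853, minus strand). It was measured at 1.15 and 0.604 TPM in saline mice, 0.784 and 3.67 TPM in AP mice, and 13.6 and 16.9 TPM in polyI:C-AP mice. The AP mice differed from each other more than from saline, and AP replicate 1 lay between saline mice, while both polyI:C-AP mice were far above the rest. In AP against saline the log2 change of 0.78 was not called (interval −0.51 to 2.07, limma adjusted p 0.301), and it became −0.07 without AP replicate 2. PolyI:C-AP against AP gave a log2 difference of 2.76, also not called (interval 1.47 to 4.05, adjusted p 0.0744), although that interval lies above 0. This difference was 1.91 without AP replicate 1 and 3.61 without AP replicate 2. With voom on estimated reads the same difference was called, at an adjusted p of 0.0252. Against saline, Oas2 rose by 3.54 on the log2 scale (adjusted p 0.00282), a call that ended without polyI:C-AP replicate 1 (0.0564) or replicate 2 (0.0565).

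Oas3 encodes the largest synthetase, with repeated OAS domains, and is the family member known for sensing long double-stranded RNA (ENSMUSG00000032661, chr5:120753098-120777661, minus strand). Values were 0.0683 and 0.168 TPM in saline mice, 0.327 and 1.22 TPM in AP mice, and 3.65 and 6.5 TPM in polyI:C-AP mice. The groups did not overlap, but the saline values rest on very few reads, estimated at about 0.7 and 1.4. Oas3 has 4 annotated transcripts, so the length behind these estimates, which are not whole numbers, is uncertain. The log2 change of 0.95 in AP against saline was not called (interval −0.14 to 2.04, limma adjusted p 0.144). It was 1.82 with a pseudocount of 0.1, 0.62 with 1 and 1.92 with voom, and not called in any of these. The difference of 2.18 in polyI:C-AP against AP was not called either (interval 1.09 to 3.27, adjusted p 0.0872). Under the settings other than leaving out a mouse, the polyI:C-AP against saline value ran from 2.40 to 4.70. Against saline the log2 change was 3.13 (adjusted p 0.00236), and without polyI:C-AP replicate 2 the adjusted p was 0.0572. Since Oas3 passed the filter only through the group where it was high, a difference between its groups was in part required by that filter.

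Oasl1 and Oasl2 are OAS-like proteins that carry ubiquitin-like domains. Oasl1 has lost the synthetase activity and is known for binding the Irf7 transcript and repressing its translation, while mouse Oasl2 keeps the enzymatic activity. Oasl1 (ENSMUSG00000041827, chr5:114923240-114937915, plus strand) was listed at 0 and 0.402 TPM in saline mice, 2.46 and 3.89 TPM in AP mice, and 6.92 and 11.5 TPM in polyI:C-AP mice. Saline mice were at or near 0, and the groups did not overlap. Oasl1 rose in AP against saline by 2.42 on the log2 scale (interval 1.32 to 3.52, limma adjusted p 0.00627), a call lost without AP replicate 1 (adjusted p 0.0523), without AP replicate 2 (0.0907) or with voom (0.0673). The size of this rise moved with the pseudocount: it was 3.83 with 0.1 and 1.80 with 1, and 3.39 with voom. Under the settings other than leaving out a mouse, the polyI:C-AP against saline value ran from 3.07 to 5.33. PolyI:C-AP against AP gave 1.39, which was not called (interval 0.29 to 2.49, adjusted p 0.25). Against saline it was 3.81 (adjusted p 0.00113), called with each mouse left out.

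Oasl2 (ENSMUSG00000029561, chr5:114896936-114912234, plus strand) stood at 1.82 and 0.97 TPM in saline mice, 3.23 and 5.54 TPM in AP mice, and 32.3 and 39.9 TPM in polyI:C-AP mice. The step between AP and polyI:C-AP mice was much wider than the step between saline and AP mice, and no groups overlapped. AP against saline gave a log2 rise of 1.36 (interval 0.64 to 2.08, limma adjusted p 0.0116). It was no longer called without saline replicate 2 (adjusted p 0.0779), AP replicate 2 (0.115), polyI:C-AP replicate 1 (0.0625) or replicate 2 (0.0513), nor with voom (0.132) or in a fit of only the 4 mice compared (0.0742). PolyI:C-AP mice were 7.66-fold above AP mice, a log2 rise of 2.94 (interval 2.22 to 3.66, adjusted p 0.0161). This call held without saline replicate 1 (0.0485) and was lost without saline replicate 2 (0.0515), AP replicate 1 (0.191), AP replicate 2 (0.138), polyI:C-AP replicate 1 (0.123) or replicate 2 (0.229), and also with a constant prior variance (0.121) or one following mean TPM (0.0796). Against saline the log2 rise was 4.30 (adjusted p 0.00017), called with each mouse left out.

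Ifit1 encodes the RNA-binding effector that holds back translation of transcripts lacking cap methylation (ENSMUSG00000034459, chr19:34640871-34650009, plus strand). Its level was 1.29 and 3.17 TPM in saline mice, 4.05 and 9.61 TPM in AP mice, and 62.2 and 63.7 TPM in polyI:C-AP mice. The mice of the saline and AP groups were spread widely, those of the polyI:C-AP group were nearly equal, and the groups did not overlap. In AP against saline Ifit1 rose by 1.40 on the log2 scale, just inside the threshold (interval 0.33 to 2.48, limma adjusted p 0.0451). The call held without saline replicate 2 (0.0455) and was lost without saline replicate 1 (0.235), AP replicate 1 (0.0583), AP replicate 2 (0.289), polyI:C-AP replicate 1 (0.153) or replicate 2 (0.134). It was also lost under median-of-ratios scaling (log2 change 1.02, adjusted p 0.137), with voom (0.179), with a pseudocount of 0.1 (0.0531), without the filter on low values (0.0853), with a constant prior variance (0.116) or one following mean TPM (0.0942), and with only the 4 mice compared (0.165). PolyI:C-AP mice were 9.35-fold above AP mice, the widest such step among the 10 effectors (log2 interval 2.15 to 4.30, adjusted p 0.0312). With 1 mouse left out it was not called in any of the 6 settings, with adjusted p-values of 0.0672 without saline replicate 1, 0.0702 without saline replicate 2, 0.296 without AP replicate 1, 0.178 without AP replicate 2, 0.229 without polyI:C-AP replicate 1 and 0.333 without polyI:C-AP replicate 2. Without AP replicate 1 the log2 step was 2.65 and without AP replicate 2 it was 3.80. The call also ended with a pseudocount of 0.1 (0.0604), without the filter (0.0738), with a constant prior variance (0.178) or one following mean TPM (0.111), and with only the 4 mice compared (0.0521). Against saline the log2 change of 4.63 was called with each mouse left out (adjusted p 0.000517 with all mice).

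Ifit2 encodes a partner of Ifit1 and Ifit3 that binds AU-rich RNA (ENSMUSG00000045932, chr19:34550694-34576419, plus strand). Values were 6.28 and 5.59 TPM in saline mice, 5.68 and 7.88 TPM in AP mice, and 13.9 and 12.1 TPM in polyI:C-AP mice. AP replicate 1 lay between saline mice, so those groups overlapped, and polyI:C-AP mice were above both. In AP against saline the log2 change was 0.16 and not called (interval −0.39 to 0.72, limma adjusted p 0.618), and its direction flipped to −0.25 under median-of-ratios scaling, −0.06 with voom and −0.06 without AP replicate 2. PolyI:C-AP against AP gave 0.90, not called (interval 0.35 to 1.46, adjusted p 0.146). Ifit2 rose against saline by 1.07 (adjusted p 0.0113), the smallest such rise of the 10 effectors. That call ended without saline replicate 2, where the log2 change was 0.99, without polyI:C-AP replicate 1 (0.97) or without replicate 2, where the adjusted p was 0.0672, and it was not made under median-of-ratios scaling or with voom.

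Ifit3 encodes the IFIT protein that stabilises Ifit1 on RNA in the human complex (ENSMUSG00000074896, chr19:34583531-34588731, plus strand). It was measured at 9.81 and 8.69 TPM in saline mice, 19.3 and 28.8 TPM in AP mice, and 142 and 129 TPM in polyI:C-AP mice. Each group formed a step of its own, without overlap. The rise in AP against saline was 2.48-fold (log2 interval 0.82 to 1.80, limma adjusted p 0.00292) and was called with each mouse left out, though not under median-of-ratios scaling (log2 change 0.87) or with voom (adjusted p 0.0552). PolyI:C-AP mice were 5.63-fold above AP mice, a log2 rise of 2.49 (interval 2.00 to 2.98) with the lowest adjusted p of the 10 effectors in that comparison, 0.00576. This call held without either saline mouse (0.0452 and 0.0472) and was lost without AP replicate 1 (0.128), AP replicate 2 (0.118), polyI:C-AP replicate 1 (0.0908) or replicate 2 (0.139), and with a constant prior variance (0.0795). Against saline the log2 rise was 3.80 (adjusted p 7.33e-05), called with each mouse left out.

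Mx1 showed another pattern (ENSMUSG00000000386, chr16:97447035-97462907, minus strand). In C57BL/6, as in most inbred strains, the Mx1 allele lacks several coding exons and gives no functional protein, so only its transcript is described. Levels were 0.276 and 0.452 TPM in saline mice, 3.58 and 4.92 TPM in AP mice, and 4.2 and 3.05 TPM in polyI:C-AP mice. Saline mice were low, and the AP and polyI:C-AP mice overlapped. AP against saline gave a log2 rise of 2.45 (interval 1.58 to 3.32, limma adjusted p 0.00234), a call lost without AP replicate 2 (adjusted p 0.0527). Both saline values lie below the pseudocount of 0.5, and the size of the rise in AP against saline moved with it. That rise was 3.24 with a pseudocount of 0.1, 1.94 with 1 and 3.02 with voom, and it was called in each of these. In polyI:C-AP against AP the difference was −0.20 and not called, with an interval of −1.07 to 0.67 and an adjusted p of 0.868. A fall or a modest rise within that interval was not detectable with these mice, and the sign turned without AP replicate 2 (0.0019). Against saline the log2 rise was 2.25 (adjusted p 0.00355), called with each mouse left out. The size of this rise also moved under the settings other than leaving out a mouse, and it was called in all of them.

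Rsad2, the gene of viperin, was the effector with the largest response to AP itself (ENSMUSG00000020641, chr12:26442746-26456452, minus strand). Its level was 3.91 and 2.97 TPM in saline mice, 70.3 and 94.8 TPM in AP mice, and 157 and 137 TPM in polyI:C-AP mice. The AP mice had already moved most of the way from the saline level to the polyI:C-pretreated level, and no groups overlapped. Rsad2 rose 21-fold in AP against saline (log2 change 4.39, interval 3.96 to 4.83, limma adjusted p 3.4e-05), the largest such rise of the 10 effectors, and was called with each mouse left out. PolyI:C-AP mice were 1.79-fold above AP mice, which was not called (log2 difference 0.84, interval 0.41 to 1.28, adjusted p 0.0934). Against saline the fold change was 37.7 (adjusted p 2.24e-05), called with each mouse left out.

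**Figure D2:**
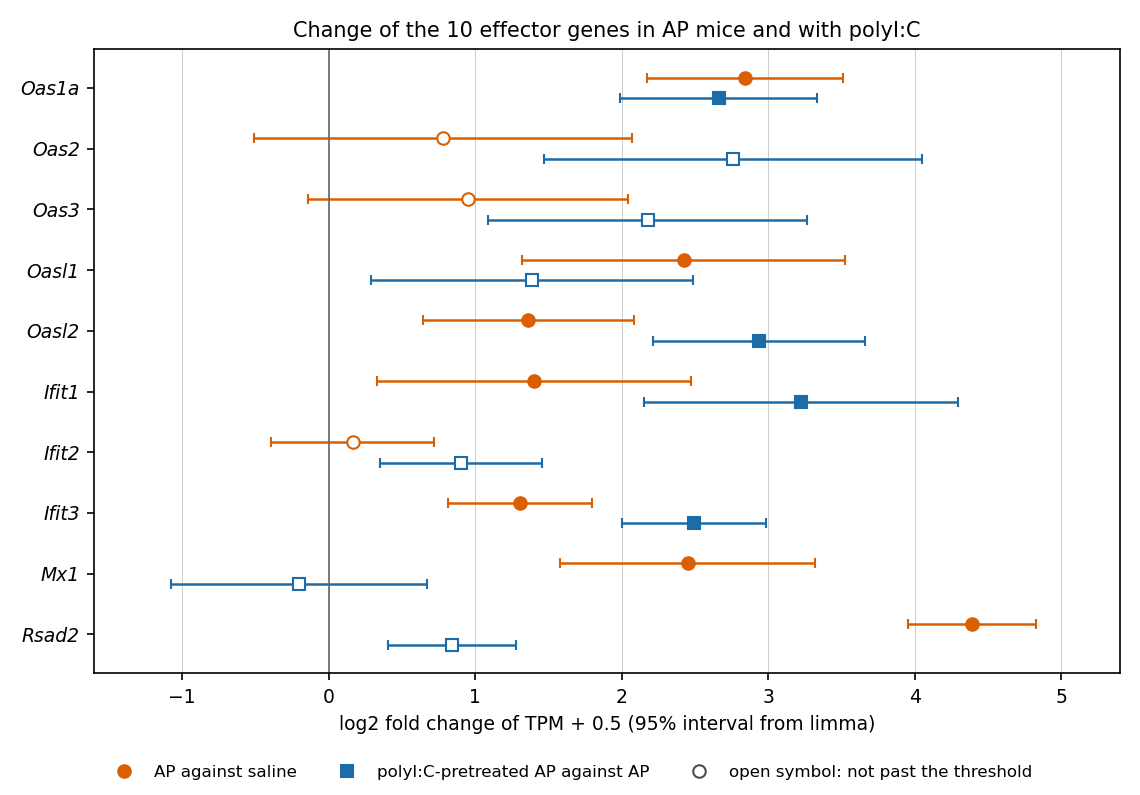
Log2 fold change of each effector with its 95% interval from limma, in AP against saline (orange circles) and polyI:C-AP against AP (blue squares), where open symbols did not pass the threshold. Rsad2 has the highest AP against saline value, 4.39, and Mx1 the only polyI:C-AP against AP value below 0. That of Mx1 turns to 0.0019 without AP replicate 2. The AP against saline value of Ifit2 turns below 0 under median-of-ratios scaling, with voom and without AP replicate 2. That of Oas2 turns to −0.07 without AP replicate 2.

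Ordered by mean level in polyI:C-AP mice, in TPM and so per transcript length, Rsad2 (147 ± 13.6, SD, n = 2) came first, followed by Ifit3 (135 ± 9.28) and Oas1a (126 ± 4.44). Next were Ifit1 (63 ± 1.07) and Oasl2 (36.1 ± 5.35), then Oas2 (15.3 ± 2.36) and Ifit2 (13 ± 1.28), and last Oasl1 (9.2 ± 3.23), Oas3 (5.08 ± 2.02) and Mx1 (3.62 ± 0.81). The ranges of the mice overlapped between Rsad2 and Ifit3, Ifit3 and Oas1a, Oas2 and Ifit2, and Oas3 and Mx1, and these neighbours do not differ beyond their spread. Saline mice had another order, led by Ifit3 (9.25 ± 0.795), Ifit2 (5.93 ± 0.481) and Rsad2 (3.44 ± 0.667). Among AP mice, Rsad2 at 82.6 ± 17.3 TPM stood above Ifit3 at 24.1 ± 6.74 and Oas1a at 20.1 ± 7.06, whose ranges overlapped.

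By family, 3 of the 5 OAS genes, 2 of the 3 IFIT genes, and both Mx1 and Rsad2 were called higher in AP against saline, where 18.2% of all tested genes were. The calls in polyI:C-AP against AP were 2 of 5 OAS genes and 2 of 3 IFIT genes, against 0.44% of all tested genes, with median log2 changes of 2.66 and 2.49. Mx1 and Rsad2 had a median of 0.32 there and 0 calls by limma, 0 by the unadjusted p with the fold limit. Whether the families differ in their response was not tested.

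All 4 calls in polyI:C-AP against AP depended on the 4 mice compared. Calls over all tested genes also fell without any 1 of these mice, so the loss is not particular to the effectors. Counts over all tested genes with a mouse left out stand in the closing section. Without AP replicate 1, AP replicate 2, polyI:C-AP replicate 1 or polyI:C-AP replicate 2, the number of effectors called was 0, while 6, 8, 7 and 5 of 10 were higher by the unadjusted limma p with the fold limit, against 2.03%, 2.21%, 3.78% and 1.55% of all tested genes. Without saline replicate 1 there were 2 calls (Ifit3 and Oasl2), and without saline replicate 2 there was 1 (Ifit3). In AP against saline, where 7 were called with all mice, the count fell to 3 without AP replicate 2 and lay between 5 and 6 with any other mouse left out. The count against saline lay between 7, without polyI:C-AP replicate 2, and 10.

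AP replicate 2 exceeded AP replicate 1 for 10 of the 10 effectors, with a median log2 difference of 0.63, whereas over all tested genes 51.9% were higher in replicate 2 and the median difference was 0.01. In the saline pair 4 of 10 effectors were higher in replicate 2 (median −0.16), and in the polyI:C-AP pair 6 of 10 (median 0.05), made up of all 5 OAS genes (median 0.31), 1 of 3 IFIT genes (−0.14) and neither Mx1 nor Rsad2 (−0.30). The AP mice thus differed in these genes as a group, by an amount that was widest for Oas2. Of the other interferon-stimulated effectors, 31 of 36 were higher in AP replicate 2 (median 0.35), 10 of 36 in saline replicate 2 (−0.41) and 27 of 36 in polyI:C-AP replicate 2 (0.14), so that list differed within the other pairs too. Summed B and plasma cell markers (6 of 6 listed, Jchain the most abundant, none at 0 in all mice) also differed within that pair, at 7.02 and 63 TPM in AP mice. The same sum was 16.7 and 23.5 TPM in saline mice and 17.3 and 69.9 TPM in polyI:C-AP mice, where Jchain made up 91.1% of the sum in replicate 2. Without Jchain it was 5.89 and 52.2 TPM in AP mice and 13.2 and 6.21 TPM in polyI:C-AP mice. Plasmacytoid dendritic cell markers (6 of 6 listed, led by Ly6d) summed to 46 and 73.8 TPM in AP mice, 14.8 and 19.6 TPM in saline mice and 23.4 and 30.3 TPM in polyI:C-AP mice. Ly6d carried the step between the groups: without it the sum was 14.8 and 15 TPM in saline mice, 14.5 and 28 TPM in AP mice, and 12.1 and 12 TPM in polyI:C-AP mice. Of 5 markers tested, 2 were called higher in AP against saline, Ly6d and Irf8, with a median log2 change of 1.38 over the 5. Of all tested genes 18.2% were called higher there, with a median of 0.45. The markers did not move together in AP against saline. Spib rose by 1.38 on the log2 scale (limma adjusted p 0.374), and Tcf4 (−0.34) and Ccr9 (−0.60) were lower, none of them called. Siglech, below the filter, averaged 1.035 TPM in saline mice and 1.04 TPM in AP mice. The call of Ly6d (log2 4.60, limma adjusted p 0.0101) ended without any 1 of the AP and polyI:C-AP mice (from 0.0518 to 0.13). That of Irf8 (1.44, 0.0255) ended without any mouse but AP replicate 1 (from 0.0656 to 0.178), under median-of-ratios scaling (0.0857), with voom (0.116), with a constant prior variance (0.0717) or one following mean TPM (0.0694), and with only the 4 mice compared (0.0669). Ly6d was at 0 and 4.53 TPM in saline mice, so its changes from saline rest on saline mice that differ widely. It was also called higher in polyI:C-AP against saline (log2 3.23, limma adjusted p 0.0396), a value of 1.57 without saline replicate 1. That call ended under median-of-ratios scaling (0.0896) and with voom (0.0784), among other settings. The part of these cell types in the difference between AP mice was not tested.

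Other cell type sums changed between the groups beside the effectors. Macrophage and monocyte markers (12 of 12 listed, led by Lyz2) summed to 763 and 492 TPM in saline mice, 2826 and 3270 TPM in AP mice, and 826 and 680 TPM in polyI:C-AP mice. The most abundant gene, Lyz2, made up 58.2% and 62.5% of the sum in saline mice and 66.9% and 64.8% in AP mice, but 24.6% and 17.5% in polyI:C-AP mice. It was at 444 and 307 TPM in saline mice, 1891 and 2118 TPM in AP mice, and 203 and 119 TPM in polyI:C-AP mice. Without it the sum was 319 and 185, 935 and 1152, and 623 and 561 TPM in the same order. Over the list, 10 of 12 were called higher in AP against saline (18.2% of all tested genes) and 5 of 12 lower in polyI:C-AP against AP (0.404%). In polyI:C-AP against saline, 3 of 12 were called higher (16.9% of all tested genes) and 2 lower (2.97%). These counts moved with single mice: the first fell to 6 without AP replicate 2, the second to 0 without AP replicate 1, AP replicate 2 or polyI:C-AP replicate 2 and to 1 without polyI:C-AP replicate 1, and the third was 6 higher without saline replicate 1. With a constant prior variance the second was 2. Genes called lower over all tested genes also fell with that prior and without any 1 of the 4 mice compared. The loss of the second count is therefore not particular to these markers. The fall of Lyz2 between AP and polyI:C-AP mice (log2 change −3.68, limma adjusted p 0.00441) was not called without AP replicate 1 (0.151), AP replicate 2 (0.156) or polyI:C-AP replicate 2 (0.0814), nor with a constant prior variance (0.078). None of the 12 had a log2 value above 0 in polyI:C-AP against AP, although their levels differed in how near they lay to those of AP mice. Cd14 was at 15.7 and 13.9 TPM in saline mice, 218 and 222 TPM in AP mice, and 216 and 209 TPM in polyI:C-AP mice, and was called higher in both groups against saline with each mouse left out. Cd68 (6.63 and 5.09, 53.4 and 50, 23.2 and 19.3 TPM in the same order) was also called in both with each mouse left out, and its lower level in polyI:C-AP than AP mice (log2 −1.27) was not called at an adjusted p of 0.0595 but was with a pseudocount of 1 (0.0493), a minimum of 5 TPM (0.0457) or voom (0.0117). The third call against saline, that of C1qa in polyI:C-AP mice (log2 change 1.11, adjusted p 0.0217), ended without saline replicate 2 (0.139), polyI:C-AP replicate 1 (0.194) or replicate 2 (0.0784), and under median-of-ratios scaling (0.138), with voom (0.127), with a constant prior variance (0.076) or one following mean TPM (0.053). The lower calls against saline, Lyz2 and Csf1r, were lost without saline replicate 1 (log2 changes −0.98 and −0.94) or polyI:C-AP replicate 2 (−0.86 and −0.96), and that of Lyz2 without either AP mouse (adjusted p 0.067 and 0.0638). The call of Lyz2 also ended with a constant prior variance (0.0563) or only the 4 mice compared (0.0508), and that of Csf1r with a pseudocount of 1 (log2 change −0.98). Neutrophil markers (6 of 8 listed, led by Retnlg) summed to 16.6 and 5.15 TPM in saline mice, 68.2 and 57.9 TPM in AP mice, and 41.8 and 20.1 TPM in polyI:C-AP mice. Without Retnlg the caerulein groups overlapped, at 32.8 and 29.9 TPM in AP mice and 34.2 and 18.6 TPM in polyI:C-AP mice. The 4 listed acinar markers, led by Bhlha15, summed to 964 and 775 TPM in saline mice, 235 and 187 TPM in AP mice, and 478 and 518 TPM in polyI:C-AP mice. Of these markers, 3 of 4 (Amy2a5, Bhlha15 and Rbpjl) were called lower in AP against saline, where 4.03% of all tested genes were, and higher in polyI:C-AP against AP (0.44%), the comparison in which 4 effectors were called higher. The latter count was 0 without any 1 of the 4 mice compared or with a constant prior variance, 1 without either saline mouse, without the filter or with a prior following mean TPM, and 2 with only the 4 mice compared. Genes called higher over all tested genes also fell in number under each of these settings. Neither the neutrophil nor the acinar sum followed the order of saline, AP and polyI:C-AP that most effectors had. Duct markers (8 of 8 listed, led by Epcam) went from 527 and 443 TPM in saline mice to 2633 and 2591 TPM with AP and 2334 and 2460 TPM with polyI:C and AP, high in both caerulein groups as Mx1 was. The part of changing cell types in the effectors' levels was not tested.

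Fibroblast and stellate markers (7 of 7 listed, led by Dcn) had sums between 630 and 969 TPM that hid opposite movements of their genes. Dcn was at 671 and 540 TPM in saline mice, 308 and 425 TPM in AP mice, and 503 and 366 TPM in polyI:C-AP mice, under the 2-fold limit in AP against saline (log2 change −0.73; −1.18 and called under median-of-ratios scaling). Col3a1, a fibrillar collagen, was at 72.4 and 31.9 TPM in saline mice, 302 and 348 TPM in AP mice, and 180 and 191 TPM in polyI:C-AP mice. Its log2 rises were 2.74 in AP against saline (limma adjusted p 0.00111) and 1.94 in polyI:C-AP against saline (0.00468), the latter not called without polyI:C-AP replicate 1 (0.0783) or replicate 2 (0.0696). Of the 7 genes, 4 were called higher in AP against saline and 3 in polyI:C-AP against saline, with median log2 changes of 1.16 and 0.93. The shares of all tested genes called higher were 18.2% and 16.9%, with medians of 0.45 and 0.48. The first count was 2 without either AP mouse, and the second was 0 without either polyI:C-AP mouse, 1 without saline replicate 2 or under median-of-ratios scaling, and 5 without saline replicate 1. Counts of genes called higher over all tested genes moved in the same direction under these settings. In polyI:C-AP against AP, 0 of the 7 markers were called by limma, 1 was lower by the unadjusted p with the fold limit, and voom called 1 lower.

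Islet markers (8 of 8, led by Iapp) summed to between 1310 TPM in polyI:C-AP replicate 1 and 2341 TPM in AP replicate 1, and endothelial markers (6 of 6, led by Pecam1) to between 60.1 and 87.8 TPM. Dendritic cell markers (6 of 6, led by Zbtb46) ran from 21.4 to 37.7 TPM, and without Zbtb46 they were highest in AP mice, at 10.9 and 13.1 TPM against 5 and 4.75 TPM in saline mice and 3.97 and 4.05 TPM in polyI:C-AP mice. T and NK cell markers (10 of 10, led by Lck) ran from 5.43 to 11.6 TPM. From these lists, 1 gene was called in AP against saline and 1 in polyI:C-AP against saline. The first was Itgax (log2 change 1.77, limma adjusted p 0.0287), which with a mouse left out was called only without saline replicate 2, the adjusted p lying between 0.0879 and 0.201 without any other. The second was Ins2 (−1.22, adjusted p 0.0249), which with a mouse left out was called only without polyI:C-AP replicate 2, the adjusted p lying between 0.0624 and 0.161 without any other. The Itgax call also ended under median-of-ratios scaling (limma adjusted p 0.0796) and with only the 4 mice compared (0.0786). A constant prior variance (0.0564) or one following mean TPM (0.0603) ended it too. For Ins2 the call ended without the filter (0.0536) and with only the 4 mice compared (0.0784). It also ended with a constant prior variance (0.0867) or one following mean TPM (0.063). No list had a gene at 0 in all 6 mice.

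Most effectors lie in clusters with close relatives, and short reads cannot always be assigned between copies. Of the 100-base stretches of Oas1a transcripts, 40.9% (730 of 1786) also occur in Oas1g, and of those of Ifit3, 31.7% (521 of 1646) occur in Ifit3b. For Ifit1 the share was 3.29%, all with Ifit1bl2, for Mx1 0.929%, all with Mx2, and for the other 6 effectors 0. Reads from shared stretches could not be traced from TPM, so how far the levels of these pairs depend on each other was not tested.

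Oas1g, an active synthetase beside Oas1a (chr5:120876142-120887613), was listed at 0.182 and 0 TPM in saline mice, 1.86 and 1.87 TPM in AP mice, and 16.1 and 19 TPM in polyI:C-AP mice. Like Oas1a it had a step at each group, at a lower level. Its log2 rises were 2.02 in AP against saline (limma adjusted p 0.00239) and 2.93 in polyI:C-AP against AP (0.0161), the latter called no longer without AP replicate 1 (0.194), AP replicate 2 (0.21), polyI:C-AP replicate 1 (0.102) or replicate 2 (0.279), or with a pseudocount of 0.1 (0.0651). The AP against saline call ended with voom (0.0628) and with only the 4 mice compared (0.0633). Oas1g averaged 0.979 TPM over the saline and AP mice, so like Oas3 it reached the filter only through polyI:C-AP mice, and a difference of that group was in part required. Without the filter its adjusted p in polyI:C-AP against AP was 0.0282. Oas1c, a relative from the same cluster (chr5:120800194-120812514), gave 0.402 and 0.247 TPM in saline mice, 4.39 and 3.58 TPM in AP mice, and 3.47 and 3.92 TPM in polyI:C-AP mice. It resembled Mx1: saline mice were low, and the caerulein groups overlapped. Oas1c rose by 2.45 in AP against saline (adjusted p 0.00372; 0.0509 and no call without AP replicate 1), and its difference of −0.09 in polyI:C-AP against AP was not called (adjusted p 0.954), turning to 0.04 without AP replicate 1. Oas1h, next to Oas1g, was listed at 0 in both saline and both AP mice and at 1.07 and 0.565 TPM in polyI:C-AP mice, below the filter.

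Ifit3b, a close copy of Ifit3 (chr19:34607970-34613401), was at 1.37 and 0.842 TPM in saline mice, 3.28 and 4.81 TPM in AP mice, and 51.3 and 39.7 TPM in polyI:C-AP mice. The polyI:C-AP mice were far above the others, with no overlap between groups. Its rise in AP against saline was 2.83-fold (limma adjusted p 0.00609; 0.0745 and no call without AP replicate 2, 0.19 with voom and 0.115 with only the 4 mice compared). The log2 rise in polyI:C-AP against AP was 3.35 (adjusted p 0.00649), lost without AP replicate 1 (0.141), AP replicate 2 (0.118), polyI:C-AP replicate 1 (0.0952) or replicate 2 (0.141), and with a constant prior variance (0.0687). Ifit1bl1 was listed at 1.13 and 7.43 TPM and Ifit1bl2 at 0.348 and 9.12 TPM in polyI:C-AP mice, against at most 0.756 TPM in every other mouse. Their high values thus came from polyI:C-AP replicate 2 alone, and neither was called. Of the 11 relatives searched, 6 were listed and 5 tested, of which 3, 2 and 3 were called higher in AP against saline, polyI:C-AP against AP and polyI:C-AP against saline. Since Oas1g, Ifit1bl1 and Ifit1bl2 reached the filter only through polyI:C-AP mice, these counts do not describe the relatives as a group. Oas1b, Oas1d, Oas1e, Oas1f and Mx2 were not listed.

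**Figure D3:**
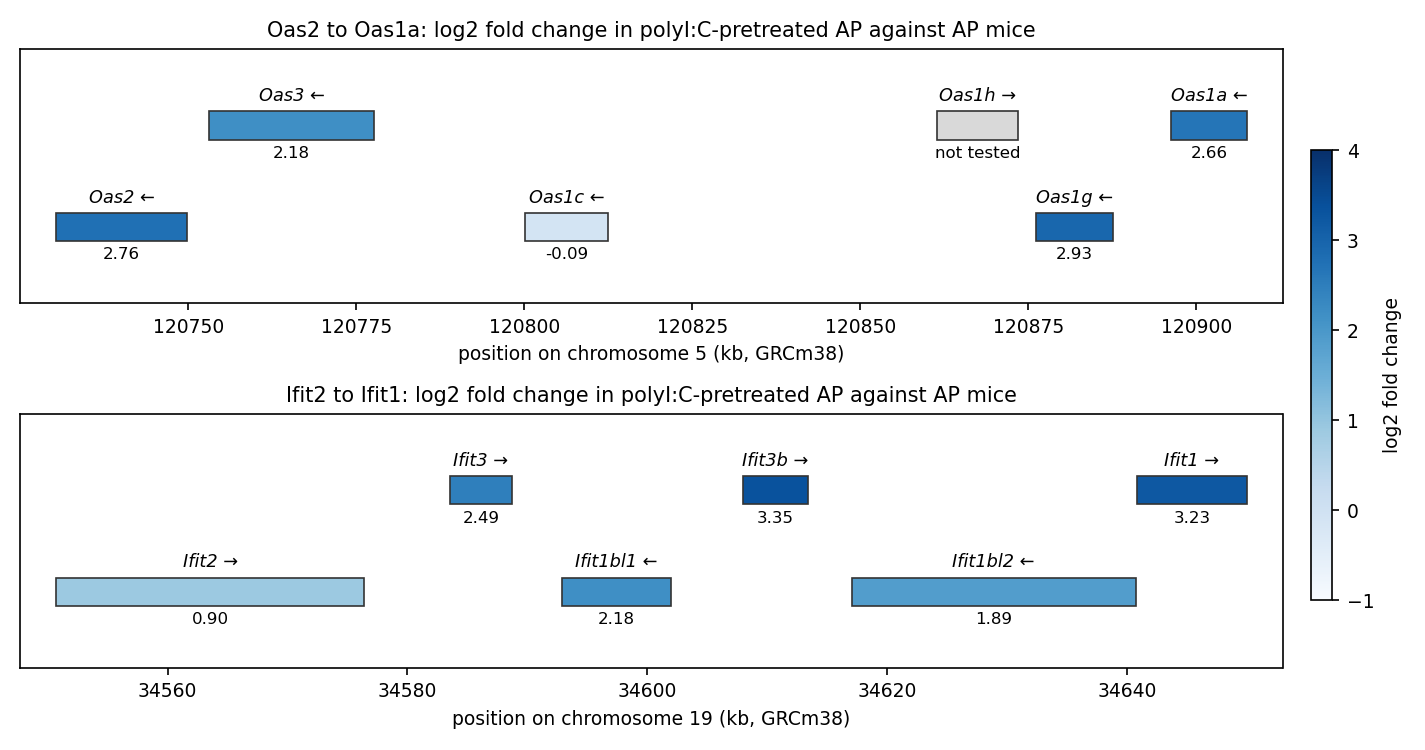
Map of the Oas cluster on chromosome 5 from Oas2 to Oas1a and the Ifit cluster on chromosome 19 from Ifit2 to Ifit1 (GRCm38 positions), with each gene coloured by its log2 fold change in polyI:C-AP against AP mice. In the Oas cluster Oas1c, at −0.09 with all mice and 0.04 without AP replicate 1, sits among neighbours at 2.18 to 2.93; Oas1h was not tested, and the values of Ifit1bl1 and Ifit1bl2 come from 1 mouse.

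Within the Oas cluster the order along the chromosome is Oas2, Oas3, Oas1c, Oas1h, Oas1g and Oas1a. Their polyI:C-AP against AP values therefore did not follow position, since Oas1c lies inside the stretch. In the Ifit cluster, Ifit2 at 0.90 lies next to Ifit3 at 2.49. Oasl1 and Oasl2 neighbour each other elsewhere on chromosome 5, with log2 differences of 1.39 and 2.94. Rsad2 lies beside Cmpk2, which encodes a nucleotide kinase that can supply viperin's substrate CTP and is transcribed from the opposite strand (chr12:26469204-26479837). Cmpk2 was at 23.3 and 15.8 TPM in saline mice, 28.7 and 37.4 TPM in AP mice, and 63.6 and 63 TPM in polyI:C-AP mice. It was thus above Rsad2 in saline mice and below it in AP mice, and its groups did not overlap. Its log2 changes were 0.75 in AP against saline, under the 2-fold limit (limma adjusted p 0.0279; 1.03 and called without saline replicate 1), and 0.94 in polyI:C-AP against AP, not called (adjusted p 0.103).

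Promoter sequence was available from RefSeq (GRCm38.p6) for 8 of the 10 effectors, all but Oas2 and Mx1, as windows from 250 bases before to 50 after a start. The core of the ISRE was searched as GAAA, any 2 bases, then GAAA on both strands, and the gamma-activated site (GAS) as TTCNNNGAA, which reads alike on both strands. An ISRE core was found in 5 of the 8 effectors, Oas1a, Oas3, Ifit1, Ifit3 and Rsad2, and in 3.44% (1131) of all 32851 windows. More than 1 match was found in Oas1a, Ifit1 and Ifit3, and in 0.225% (74) of all windows. Oasl1, Oasl2 and both windows of Ifit2 had none, which says only that these letters are absent from those windows. A GAS match occurred in Oas1a at −98 and in the first Ifit2 window at −241, and in 8.3% (2726) of all windows.

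The stretches around the ISRE cores are shown because these effectors were all higher in both polyI:C-AP mice than in both AP mice, and those of the relatives Oas1g and Oas1c because these neighbours had log2 changes of 2.93 and −0.09 between those groups. They are written 5′ to 3′ on the strand of the gene, with the letters of the match in capitals, and a match on the opposite strand reads TTTC, any 2 bases, then TTTC. The coordinates are chr5:120907515-120907560 (Oas1a, minus), chr5:120887601-120887646 (Oas1g, minus), chr5:120812598-120812643 (Oas1c, minus), chr5:120777710-120777749 (Oas3, minus), chr19:34640770-34640828 (Ifit1, plus), chr19:34583358-34583431 (Ifit3, plus) and chr12:26456548-26456587 (Rsad2, minus).
Oas1a: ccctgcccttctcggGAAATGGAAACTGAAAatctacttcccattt
Oas1g: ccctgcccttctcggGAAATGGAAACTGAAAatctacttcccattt
Oas1c: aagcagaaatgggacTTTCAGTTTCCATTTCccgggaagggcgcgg
Oas3: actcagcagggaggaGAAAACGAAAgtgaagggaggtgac
Ifit1: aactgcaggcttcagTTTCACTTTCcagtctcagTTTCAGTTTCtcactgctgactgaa
Ifit3: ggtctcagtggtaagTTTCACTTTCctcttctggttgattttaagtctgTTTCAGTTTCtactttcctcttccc
Rsad2: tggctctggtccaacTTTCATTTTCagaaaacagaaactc

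The matches of Oas1a begin at −20 and −14 from the start and overlap, so that their capitals form 1 run. Those of Oas1g begin at −18 and −12 in a stretch whose 46 bases are identical to those of Oas1a. Oas1c also has overlapping matches, on the opposite strand and farther out at −114 and −108. The matches of Ifit1, Ifit3 and Rsad2 lie on the opposite strand too. Ifit1 has matches at −104 and −85, and Ifit3 at −156 and −122. The Ifit3 stretch of 74 bases is identical in Ifit3b (chr19:34607754-34607827), where the matches begin at −188 and −154. Oas3 has its match at −75 and Rsad2 at −120. Effectors with a match and those without one were both among the 4 called in polyI:C-AP against AP, since Oasl2 had none and Oas3 and Rsad2, which had one, were not called. The matches describe letters, and binding was not measured.

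Upstream of the effectors, the double-stranded RNA sensing list (9 of 9 tested) had 5, 1 and 5 genes called higher. These counts are for AP against saline, polyI:C-AP against AP and polyI:C-AP against saline, with median log2 changes of 1.52, 0.15 and 1.24. Over all tested genes, 18.2%, 0.44% and 16.9% were called higher, with medians of 0.45, 0.04 and 0.48. The 5 genes were Tlr3, Ifih1, Ddx58, Dhx58 and Ikbke in both comparisons with saline, except that Ikbke fell under the fold limit in polyI:C-AP mice under median-of-ratios scaling (log2 0.81). Tlr3, the endosomal receptor of polyI:C, was at 1.10 and 0.783 TPM in saline mice, 10.1 and 6.29 TPM in AP mice, and 9.12 and 8.64 TPM in polyI:C-AP mice. It was low in saline mice and overlapped between the caerulein groups, as Mx1 did, and its log2 difference of 0.15 in polyI:C-AP against AP was not called (limma adjusted p 0.877; −0.17 without AP replicate 2). Dhx58, a helicase that assists the sensor MDA5, was the gene of this list called in that comparison, with 5.69 and 7.15 TPM in AP mice and 17.9 and 19.7 TPM in polyI:C-AP mice. Its groups did not overlap, and its call (log2 1.49, adjusted p 0.0417) was lost without saline replicate 1 (0.0674), saline replicate 2 (0.0702), AP replicate 1 (0.322), AP replicate 2 (0.276), polyI:C-AP replicate 1 (0.179) or replicate 2 (0.384). It was lost too with a pseudocount of 0.1 (0.061), without the filter (0.0595), with a constant prior variance (0.106) or one following mean TPM (0.0946), with a replicate block (0.0536) and with only the 4 mice compared (0.0529). Ifih1, which encodes MDA5, had log2 values of 2.05 in AP against saline and 0.75 in polyI:C-AP against AP, the latter not called (adjusted p 0.0809).

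Of 19 genes for type I and III interferons, 2 were listed. Ifna5 was listed at 1.95 TPM in AP replicate 2 and at 0 in the other 5 mice. Ifnk was at 11.1 and 1.05 TPM in saline mice, 8.72 and 4.14 TPM in AP mice, and 13.3 and 18.5 TPM in polyI:C-AP mice, and it was the only gene of the list tested, with 0 calls by limma and 0 by the unadjusted p. Its groups overlapped between saline and AP. Ifnb1 was among the interferon genes not listed, so no level of this inducer of the effectors can be given.

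Among 18 interferon receptors and signal transducers, 17 were tested and 12, 1 and 12 called higher in the 3 comparisons, with medians of 1.43, −0.0029 and 1.59. Of all tested genes, 18.2%, 0.44% and 16.9% were called higher there, with medians of 0.45, 0.04 and 0.48. Under median-of-ratios scaling the calls against saline were 7 in AP mice, where Ifnar1 (log2 0.74), Ifnar2 (0.83), Stat2 (1.00, just under the limit) and Usp18 were among those lost, and 10 in polyI:C-AP mice. Leaving out AP replicate 2 gave 8 in AP mice, and leaving out polyI:C-AP replicate 1 gave 8 in polyI:C-AP mice. The 1 call between the caerulein groups became 0 without any 1 of their 4 mice or with a constant prior variance, and voom made 3. Over all tested genes the number called higher moved in the same direction under each of these settings. The receptor gene Ifnar1 was at 18.7 and 16.4 TPM in saline mice, 42.2 and 38.7 TPM in AP mice, and 33.7 and 30.8 TPM in polyI:C-AP mice. It was highest in AP mice, unlike every effector but Mx1, and its log2 difference of −0.32 in polyI:C-AP against AP was not called (limma adjusted p 0.315). Irf7, the factor that amplifies interferon production and whose transcript Oasl1 binds, was at 0.604 and 0.878 TPM in saline mice, 3.15 and 6.14 TPM in AP mice, and 79 and 79.2 TPM in polyI:C-AP mice. The step into the polyI:C-AP group was 16.2-fold (adjusted p 0.00371), wider than that of any of the 10 effectors, and was not called without AP replicate 1 (0.128), AP replicate 2 (0.118), polyI:C-AP replicate 1 (0.0761) or replicate 2 (0.119), or with a constant prior variance (0.0653).

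Other transducers had smaller changes than Irf7, a difference that was not tested. Irf9 was at 21.5 and 26.1 TPM in AP mice and 47.1 and 48.1 TPM in polyI:C-AP mice, a 1.99-fold difference just under the fold limit (adjusted p 0.0344), called with a pseudocount of 0.1. Stat2 gave a log2 difference of 1.11 there, not called (adjusted p 0.158; 0.0207 and called with voom). Usp18, a feedback inhibitor of the type I interferon receptor, was at 7.40 and 21.1 TPM in AP mice and 86.5 and 67 TPM in polyI:C-AP mice. These mice did not overlap, and the log2 difference of 2.55 was not called (adjusted p 0.188), while voom called it at 0.0171. Its rise of 2.33 in AP against saline was called with all mice and was lost with any mouse but saline replicate 1 left out (adjusted p from 0.103 to 0.313), as well as under median-of-ratios scaling (0.0925), with voom (0.161), with a pseudocount of 0.1 (0.0579), without the filter (0.0867), with a constant prior variance (0.12) or one following mean TPM (0.0973), with a replicate block (0.0536) and with only the 4 mice compared (0.116).

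Other interferon-stimulated effectors (36 of 37 tested) were called higher in 29, 11 and 34 cases, with medians of 1.69, 1.03 and 2.89. The comparisons are AP against saline, polyI:C-AP against AP and polyI:C-AP against saline. Of all tested genes, 18.2%, 0.44% and 16.9% were called higher in them, with medians of 0.45, 0.04 and 0.48. The count of 29 was 24 under median-of-ratios scaling and 20 without AP replicate 2. The 11 became 0 without any 1 of the 4 mice compared, 5 without either saline mouse, 7 with only the 4 mice compared, 4 without the filter, 2 with a constant prior variance, 3 with a prior following mean TPM and 17 with voom. Over all tested genes the number called higher moved in the same direction under each of these settings. The 10 effectors had a lower median in AP against saline, 1.38, and a higher one in polyI:C-AP against AP, 2.34, a difference that was not tested. The highest values in polyI:C-AP against AP were those of Ifi44, Isg15 and Bst2. Ifi44 went from 1.37 and 1.74 TPM to 15.7 and 17.9 TPM, Isg15, a ubiquitin-like modifier, from 6.81 and 13.2 TPM to 65.6 and 73.8 TPM, and Bst2, which tethers virions, from 172 and 202 TPM to 961 and 994 TPM. Each separated the groups, with log2 changes of 3.08, 2.81 and 2.39 and limma adjusted p-values of 0.00469, 0.0247 and 0.00274. All 3 calls were lost without AP replicate 1 (0.129, 0.204 and 0.128), AP replicate 2 (0.118, 0.14 and 0.118), polyI:C-AP replicate 1 (0.072, 0.177 and 0.0512) or replicate 2 (0.159, 0.325 and 0.0644), and that of Isg15 also without saline replicate 1 (0.0685) or replicate 2 (0.0722), without the filter (0.0552), with a constant prior variance (0.123) or one following mean TPM (0.0806), and with only the 4 mice compared (0.0536). The lowest were Epsti1 (0.07, and −0.22 without AP replicate 1 or −0.29 without polyI:C-AP replicate 2), Tor3a (0.12) and Sp100 (0.41), none of them called. Genes that lean on interferon-gamma (3 of 6 tested) had 0, 1 and 1 calls, where 18.2%, 0.44% and 16.9% of all tested genes were called higher. In the first comparison the count was 0 also by the unadjusted limma p. By that p with the fold limit, 1 gene was lower in each of the other comparisons. It was Ciita, the class II transactivator, at 7.30 and 5.93 TPM in saline mice, 3.74 and 13.7 TPM in AP mice, and 2.25 and 2.31 TPM in polyI:C-AP mice. Its log2 differences of −1.48 against AP (adjusted p 0.262) and −1.35 against saline (0.0767) were not called, though the latter was under median-of-ratios scaling (0.0408), with only the 4 mice compared (0.0134) and without AP replicate 1 (0.0133) or replicate 2 (0.0163). The called gene was Cxcl9, a chemokine, at 0.431 and 1.02 TPM in AP mice and 5.74 and 7.54 TPM in polyI:C-AP mice. Its call between these groups (adjusted p 0.0497) was lost with any of the 6 mice left out, at 0.0881 and 0.0902 without saline replicate 1 and 2, 0.352 and 0.28 without AP replicate 1 and 2, and 0.186 and 0.437 without polyI:C-AP replicate 1 and 2, and its call against saline ended without polyI:C-AP replicate 2 (0.0542). Cxcl9 averaged 0.598 TPM over the saline and AP mice and so reached the filter only through polyI:C-AP mice, which in part required that group to differ. Without the filter the call between AP and polyI:C-AP mice was lost (0.0732), as it was with a pseudocount of 0.1 (0.0706), under median-of-ratios scaling (0.0596), with a constant prior variance (0.106) or one following mean TPM (0.104), with a replicate block (0.0617) and with only the 4 mice compared (0.0776).

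Across the 6 mice, the mean profile of the 10 effectors, each centred on the log2 scale, was −1.84 and −1.85 in saline mice, −0.42 and 0.35 in AP mice, and 1.82 and 1.94 in polyI:C-AP mice. Against the mean of the other 9, Pearson r over the 6 mice ran from 0.993 for Oas1a and 0.981 for Ifit3 down to 0.891 for Rsad2 and 0.782 for Mx1. Among 9409 other genes that averaged 10 TPM or more, the 5 most like the mean profile were Dalrd3 (r = 0.9995), Ring1 (0.9987), Rcor1 (0.9981), Aspscr1 (0.9978) and Xaf1 (0.9974). Dalrd3 spanned only 17.4 to 27.6 TPM, and Xaf1, a known interferon-stimulated gene, 1.33 to 36.9 TPM. These r values describe shape over 3 groups of mice, are not a test, and say nothing of the size of a change.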

How the data were processed

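RNA-sequencing values of the pancreas were taken from 6 mice in 3 groups, assigned by their labels. The authors deposited TPM per gene. Upstream, the authors used Trimmomatic, STAR on mm10, htseq-count and DESeq2. Versions are not given in the sources used here, and the step from counts to TPM is not described. The members and gene lists were chosen with earlier results of these data known. Named are all 10 effectors, list genes with a clear role, the 3 highest and 3 lowest other effectors in polyI:C-AP against AP, and the 5 genes most alike; further relatives, neighbours, Ikbke, Cxcl9 and single marker genes were named after their values were seen.

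Symbols and positions came from GENCODE M21 (22490 of 22556 identifiers matched). In R 4.3.3, limma 3.58.1 was fitted to log2(TPM + 0.5) of all 6 mice, with 1 coefficient per group and a prior variance following log2(mean TPM × exon length + 1). Genes needed a mean of at least 1 TPM (16814), and Benjamini-Hochberg adjustment covered all of them. The fit was also run on simulated data, but no outcome is given here and no result rests on it. A count model does not apply to TPM, so voom on estimated reads served as an alternative. Reads were estimated from low TPM values (tolerance 0.1, limit 20), of which 97.4% to 97.8% were whole multiples of a step, against 21.4% to 22.6% with gene lengths shuffled. Promoters came from RefSeq, and sequence steps ran in Python 3.11.15. Alternatives were pseudocounts of 0.1 and 1, no filter or 5 TPM, median-of-ratios scaling, other priors, voom, adjusted p alone, a replicate block, only the 4 mice compared, and leaving out each mouse. The authors' own calls were not repeated.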

Additional observations from a re-analysis of the deposited data

How the results depend on the processing

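With 2 mice per group and 3 residual degrees of freedom, small differences were measured poorly. Estimated reads on listed genes ran from 3291434 to 10832715 per library. Genes under about 1 TPM, Oas3 and Oasl1 in the saline mice among them, were thus measured poorly too. A lone mouse left in a group was assumed to vary like the others. Under the settings other than leaving out a mouse, the direction and side of the threshold were kept by 93 of 107 values of the 10 effectors in AP against saline, 96 of 107 in polyI:C-AP against AP and 105 of 107 in polyI:C-AP against saline. With a mouse left out they were kept by 46, 38 and 54 of 60. A minimum of 5 TPM left no value for Oas3, Oasl1 and Mx1.

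Counts in AP against saline were 3053 higher, 677 lower and 7 effectors. Median-of-ratios scaling gave 1513 and 1266, adjusted p alone 5552 and 1242, and voom 1796 higher and 3 effectors. With a mouse left out they ran from 1954 (without AP replicate 2) to 3072, from 447 to 630 and from 3 to 6.

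In polyI:C-AP against AP they were 74, 68 and 4. A constant prior gave 22, 19 and 0 (7 effectors by the unadjusted limma p with the fold limit), a prior following mean TPM 21, 18 and 1, no filter 44 higher, adjusted p alone 120 higher, and voom 211 lower. With a mouse left out they ran from 0 to 48, from 0 to 46 and from 0 to 2, and were 0 by limma without either AP mouse or polyI:C-AP replicate 2, where 341, 371 and 261 genes were higher and 371, 276 and 348 lower by the unadjusted p with the fold limit.

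In polyI:C-AP against saline they were 2838, 500 and 10. Median-of-ratios scaling gave 1281 and 1016, voom 1504 and 813, and adjusted p alone 5617 and 975. With a mouse left out they ran from 2165 to 2893, from 342 (without polyI:C-AP replicate 2) to 452 and from 7 to 10. A replicate block gave 2987, 659 and 7 in the first comparison, 62, 62 and 4 in the second, and 2799, 488 and 10 here, although replicate numbers do not pair the mice (correlations across genes between mice of the same number, as deviations from their group, 0.0075, 0.0351 and −0.0039).

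Directions reversed as follows, and the cause was not tested. In AP against saline, median-of-ratios scaling turned Ifit2 to −0.25 and Sp100 to −0.23, and voom turned them to −0.065 and −0.080, while Ciita turned to −0.29 and −0.054 under these settings. For Irf8 in polyI:C-AP against saline the values were −0.18 and −0.038. With a mouse left out, values in AP against saline ran from −0.071 (without AP replicate 2) to 1.63 for Oas2, from −0.056 (without AP replicate 2) to 0.38 for Ifit2, from −0.76 to 0.57 (without AP replicate 1) for Ifit1bl1, from −0.25 (without saline replicate 2) to 0.63 for Ifit1bl2, from −0.37 (without saline replicate 2; −0.091 without AP replicate 2) to 0.71 for Sp100, from −0.056 (without AP replicate 2) to 0.65 for Cxcl9, and from −0.74 (without AP replicate 2; −0.0056 without saline replicate 2) to 1.01 for Ciita. In polyI:C-AP against AP they ran from −0.41 to 0.0019 (without AP replicate 2) for Mx1, from −0.23 to 0.036 (without AP replicate 1) for Oas1c, from −0.17 (without AP replicate 2) to 0.47 for Tlr3, and from −0.030 (without AP replicate 2) to 0.086 for Mavs. Those of Ifnlr1 ran from −0.30 to 0.029 and of Tyk2 from −0.031 to 0.025 (both without AP replicate 1; 0.018 and 0.014 without polyI:C-AP replicate 2), and those of Epsti1 from −0.29 (without polyI:C-AP replicate 2; −0.22 without AP replicate 1) to 0.44. Values of Itgax in polyI:C-AP against saline ran from −0.040 (without saline replicate 1) to 1.28, and those of Irf8 from −0.031 (without saline replicate 2) to 0.49.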
